A study of Mus musculus with 17 samples.

Results

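Here 8 rows of the islet RNA-seq tables were followed across all 6 groups of the study: 2 Ensembl identifiers, ENSMUSG00000118841 and ENSMUSG00000118866, and 6 genes of the signal recognition particle (SRP) and its receptor, *Srp9*, *Srp14*, *Srp19*, *Srp68*, *Srp72* and *Srprb*. The 2 identifiers were selected on their mean share of the counts in the table of wildtype and *Pax4* R192H islets, the largest of all rows, so their place at the top of that table is a description and was not tested. The 6 genes were taken by symbol. Together these are 8 of the 78239 identifiers of that table, and all 8 are also among the 73212 identifiers of the table of control and *Pax4* βiKO islets. The last identifier inside the choice held 22.3% of the counts on average, and the first outside it, *Ins2*, held 2.66%. The 8 rows passed the filter on low counts in both tables.

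Total RNA was sequenced from isolated islets of male mice, in 17 samples. *Pax4* R192H mice were homozygous for the R200H substitution in the endogenous mouse *Pax4*, which corresponds to R192H of human PAX4, and were compared with wildtype littermates, both on a C57BL6/N background. Mice of both genotypes were either 12 weeks old on a standard chow diet (SCD) or 16 weeks old after 4 weeks of a high-fat diet (HFD), with 3 samples in each of these 4 groups, so diet and age changed together. *Pax4* βiKO mice carried homozygous floxed *Pax4* and Pdx1-CreERT2, a tamoxifen-activated Cre driven by the promoter of Pdx1, a factor of β cells and of other islet cells. Their controls were floxed and Cre-negative, both were given tamoxifen, and islets were taken at 20 weeks of age after 8 weeks of HFD, from 3 *Pax4* βiKO and 2 control samples. The labels call the samples biological replicates and do not say whether each came from 1 mouse, so p-values measure the spread between these samples.

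SRP is a complex of 1 RNA, named 7SL and transcribed by RNA polymerase III, and a few proteins. It binds the signal sequence of a secreted or membrane protein as it leaves the ribosome, slows translation and, through a receptor in the membrane of the endoplasmic reticulum (ER), hands the ribosome to the Sec61 channel, where signal peptidase cuts the signal sequence off. Proinsulin, the precursor of insulin and the main secretory protein of β cells, enters the ER in its synthesis.

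The reference used here pairs neither of the 2 identifiers with a symbol or a position, so they are called the 2 abundant RNAs and no identity is given to them. Of the 7SL genes that GENCODE M21 names, *Rn7s6* is a row of both tables, and the levels of the others were not analysed here. RSEM, the authors' quantifier, divides reads that match several transcripts by an estimate, so the level of *Rn7s6* is uncertain, and so is any split between rows that share sequence.

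Total expected counts lay between 24268157 and 42679645 per sample in the *Pax4* R192H table and between 28618835 and 31887537 in the *Pax4* βiKO table. After removal of the 2 abundant RNAs, between 13034615 and 21436581 counts were left in the first and between 26903739 and 30029326 in the second. *Pax4* was listed at 0 counts in all 17 samples, so the genotypes could not be checked with it. Defining markers of islet endocrine cells were present in every sample, and none of the 25 acinar markers, which come from the exocrine pancreas, was at 0 in any. In bulk tissue, fewer cells of a type and less RNA per cell cannot be told apart.

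In the *Pax4* R192H table the 2 abundant RNAs together took 36.2% to 53.3% of all counts, whereas in the *Pax4* βiKO table they took 5.40% to 6.49%. In SCD-fed wildtype islets the 3 samples held 46.4%, 42.9% and 36.2%. In SCD-fed *Pax4* R192H islets the values were 37.9%, 37.6% and 46.3%. The samples of both SCD groups covered nearly the same range. In HFD-fed wildtype islets the share was 43.7%, 49.0% and 49.8%. In HFD-fed *Pax4* R192H islets it was 51.1%, 53.3% and 49.2%, of which the lowest fell below the highest HFD-fed wildtype sample. Control islets held 5.49% and 6.49%, and *Pax4* βiKO islets held 5.60%, 5.83% and 5.40%. At these depths the 95% Wilson interval of a share was at most 0.040 percentage points wide, which covers counting error only, as no molecular identifiers were counted.

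**Figure D1:**
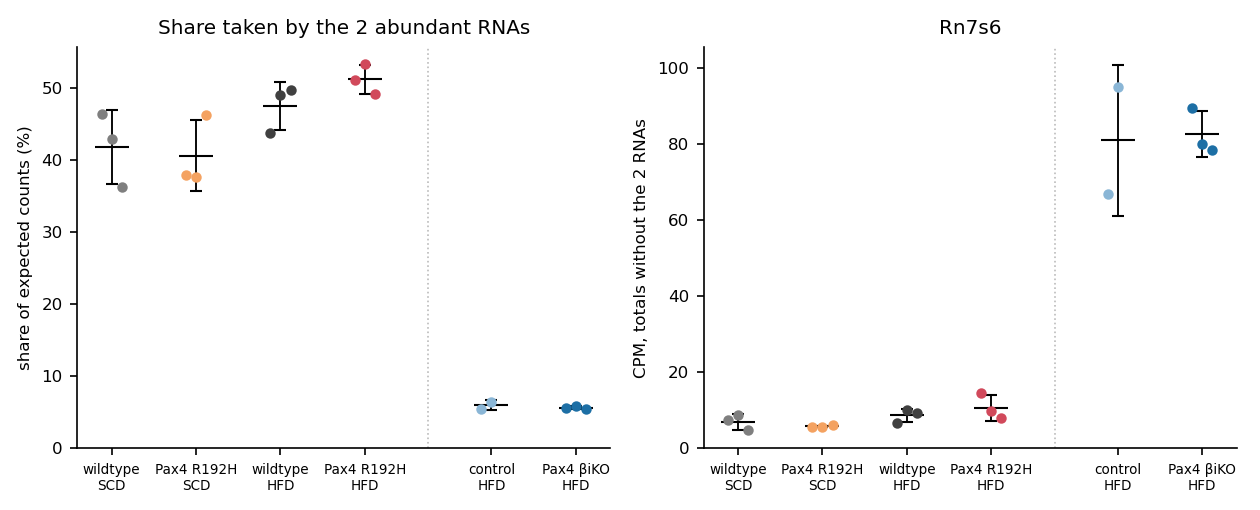
Left, share of all expected counts (%) held by ENSMUSG00000118841 and ENSMUSG00000118866 together. Right, *Rn7s6* in CPM of all other counts. Points are samples, horizontal lines are group means, and error bars are SD. The 12 samples left of the dotted line, from the *Pax4* R192H table, sit between 36.2% and 53.3% on the left and between 4.74 and 14.5 on the right. The 5 samples of the *Pax4* βiKO table sit between 5.40% and 6.49%, and between 67.0 and 95.0.

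The higher share on HFD was the largest difference within a table. The mean share was 49.3% in the 6 HFD samples and 41.2% in the 6 SCD samples, a difference of 8.13 percentage points (two-sided exact permutation test within genotypes, p = 0.01, Benjamini-Hochberg adjusted p = 0.05 over 5 comparisons of the share, which does not pass the threshold). The ranges of HFD and SCD samples overlapped. No difference in the share between genotypes passed its test. On SCD, *Pax4* R192H islets held 40.6% ± 4.93 (SD, n = 3) and wildtype islets 41.8% ± 5.16 (SD, n = 3), with an exact permutation p = 0.9. On HFD, they held 51.2% ± 2.03 (SD, n = 3) and 47.5% ± 3.32 (SD, n = 3), with an exact permutation p = 0.2. With 3 samples against 3 this test cannot give a p-value under 0.1. Over both diets the genotype difference was 1.22 percentage points (exact permutation p = 0.575). *Pax4* βiKO islets held 5.61% ± 0.216 (SD, n = 3) and control islets 5.99% ± 0.707 (SD, n = 2), with an exact permutation p = 0.5.

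The ratio of the 2 identifiers was nearly constant in the *Pax4* R192H table. Whether they share sequence was not examined, and RSEM divides shared reads, so they may not be 2 separate measurements. ENSMUSG00000118841 held 23.0% of the counts on average and ENSMUSG00000118866 held 22.3%, and the ratio of the first to the second stayed between 1.014 and 1.068 over 12 samples. In the *Pax4* βiKO table they held 3.42% and 2.35%, placed after *Ins2* at 6.38% and *Iapp* at 3.69%, and the ratio lay between 1.37 and 1.71. *Rn7s6* stood the other way around between the tables. In counts scaled to 1000000 counts of all other rows (CPM of all other counts), it had 4.74 to 14.5 in the first table and 67.0 to 95.0 in the second. Scaled to 1000000 counts of the 2 abundant RNAs, it had 7.00 to 13.9 against 1153 to 1513. *Rpph1*, the RNA of ribonuclease P and also a product of RNA polymerase III, had 18071 to 28753 CPM of all other counts in the first table and 1020.2 to 1296 in the second. The tables differ in genotype, age, weeks of HFD and experiment together, so which of these goes with the difference cannot be told apart, and no test was made between tables.

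The 6 SRP genes are protein-coding and lie apart in the genome: in GRCm38, *Srp9* at chr1:182124737-182132407 on the plus strand, *Srp14* at chr2:118475850-118479711 on the minus strand, *Srp68* at chr11:116245166-116274217 on the minus strand, *Srp72* at chr5:76974683-76999937 on the plus strand and *Srprb* at chr9:103188032-103202137 on the minus strand, with *Srp19* on chromosome 18. *Srp9* and *Srp14* encode the pair that slows translation, *Srp68* and *Srp72* the largest subunits, which bind each other, *Srp19* a subunit needed for assembly of the particle on its RNA, and *Srprb* the membrane-anchored subunit of the SRP receptor. In CPM of all other counts per kilobase of merged exons, *Srp14* was highest in SCD-fed wildtype islets at 66.8 ± 1.12 (SD, n = 3). *Srp72* at 37.4 ± 1.94, *Srp9* at 34.4 ± 4.18, *Srp68* at 28.6 ± 2.04 and *Srprb* at 25.2 ± 4.00 followed, and in this order the ranges of 1 SD around the means overlapped between neighbours. *Srp19* was lowest at 4.52 ± 0.570. In HFD-fed *Pax4* R192H islets *Srp14* stood at 81.0 ± 13.5, *Srp9* at 44.3 ± 4.79 and *Srprb* at 39.9 ± 4.81, so that *Srprb* ranked above *Srp72* at 34.1 ± 3.65, although the ranges of 1 SD around the means overlapped between neighbours from *Srp9* down to *Srp68* at 31.6 ± 1.75. The order between genes rests on merged exon lengths, such as 1195 bases for *Srp14* and 5541 for *Srp9*, and not on the transcripts present. Without division by length, *Srp9* had 190 and *Srp14* 79.8 CPM of all other counts in SCD-fed wildtype islets.

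On SCD, none of the 8 rows passed the test between *Pax4* R192H and wildtype islets. Fitted log2 fold changes lay between -0.15 and 0.12, every edgeR adjusted p-value was 1, no row had an unadjusted p-value under 0.05 and DESeq2 also called 0. Over all 19137 rows tested the share called was 0% with edgeR and 0.0993% with DESeq2. A call means an edgeR adjusted p-value below 0.05 and a log2 fold change beyond 0.5 in either direction, after TMM normalization. TMM scales libraries so that most genes are centred on no change. *Srp14* had 41.1, 39.1 and 39.4 TMM-normalised CPM in wildtype and 42.6, 40.8 and 46.6 in *Pax4* R192H islets. *Srp9* had 108, 93.9 and 83.5 in wildtype and 89.8, 82.2 and 102 in *Pax4* R192H islets. Both pairs of groups overlapped on this scale. In CPM of all counts, *Srp14* alone of the 8 rows did not overlap, at 50.3 to 54.9 in *Pax4* R192H and 43.3 to 49.9 in wildtype islets. The share of all rows that separated this way was not counted.

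On HFD, the same comparison gave a positive fold change for 8 of 8 rows with TMM and for 6 with plain library totals, where *Srp68* and *Srp72* turned negative, and none was called, against 2.28% of all rows. The edgeR adjusted p-value was lowest for *Srp9* and *Srprb*, and 4 of the 8 rows had an unadjusted p-value under 0.05, against 15.9% of all rows. *Srp9* had 75.5, 125 and 105 TMM-normalised CPM in wildtype and 152, 176 and 160.2 in *Pax4* R192H islets, a log2 fold change of 0.68 ± 0.17 (SE, edgeR adjusted p = 0.0554). *Srprb* had 55.3, 80.3 and 72.2 in wildtype and 104, 121 and 115 in *Pax4* R192H islets, a log2 fold change of 0.71 ± 0.19 (SE, edgeR adjusted p = 0.0728). In both genes the wildtype samples lay below the *Pax4* R192H samples without overlap, and the first wildtype sample was the lowest. *Srp14* had 36.4, 55.6 and 51.3 in wildtype and 57.8, 76.5 and 58.7 in *Pax4* R192H islets (log2 fold change 0.43, edgeR adjusted p = 0.184). *Srp68* had 49.3, 41.8 and 49.1 against 62.6, 54.5 and 55.6 (log2 fold change 0.30, edgeR adjusted p = 0.19). Here the first wildtype sample was the highest of the wildtype samples, so the subunits did not rank the samples alike. In TMM-normalised CPM, all rows but *Srp19* were higher in *Pax4* R192H islets without overlap, 7 of 8, against 13.0% of all rows. In CPM of all counts, 1 of 8 was, *Srprb*, against 3.21% of all rows. DESeq2 called *Srp9* (adjusted p = 0.0055) and *Srprb* (adjusted p = 0.0121), where it called 5.19% of all rows, and edgeR called *Srp9* once the second HFD-fed wildtype sample was left out (adjusted p = 0.0247), where 2.45% of all rows were called.

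In wildtype islets, HFD against SCD called none of the 8 rows, against 0.371% of all rows. DESeq2 called 0 as well, where it called 3.05% of all rows. An unadjusted edgeR p-value under 0.05 was reached by 2 rows, *Srp19* and *Srp68*, against 15.2% of all rows. *Srp19* had 8.22, 7.03 and 9.34 TMM-normalised CPM on SCD and 3.81, 7.13 and 5.21 on HFD, and its log2 fold change was -0.61 with an edgeR adjusted p of 0.243. The second HFD sample lay inside the SCD range on this scale. In CPM of all counts *Srp19* was lower on HFD without overlap, at 8.25 to 11.8 on SCD and 4.21 to 6.34 on HFD. *Srp72* was also lower without overlap there, and none of the 8 rows was higher. The share of all rows that fell this way was not counted, and with plain library totals the median log2 fold change of all tested rows was -0.26. The 2 abundant RNAs had log2 fold changes of 0.47 and 0.45, with edgeR adjusted p-values of 0.433 and 0.449.

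**Figure D2:**
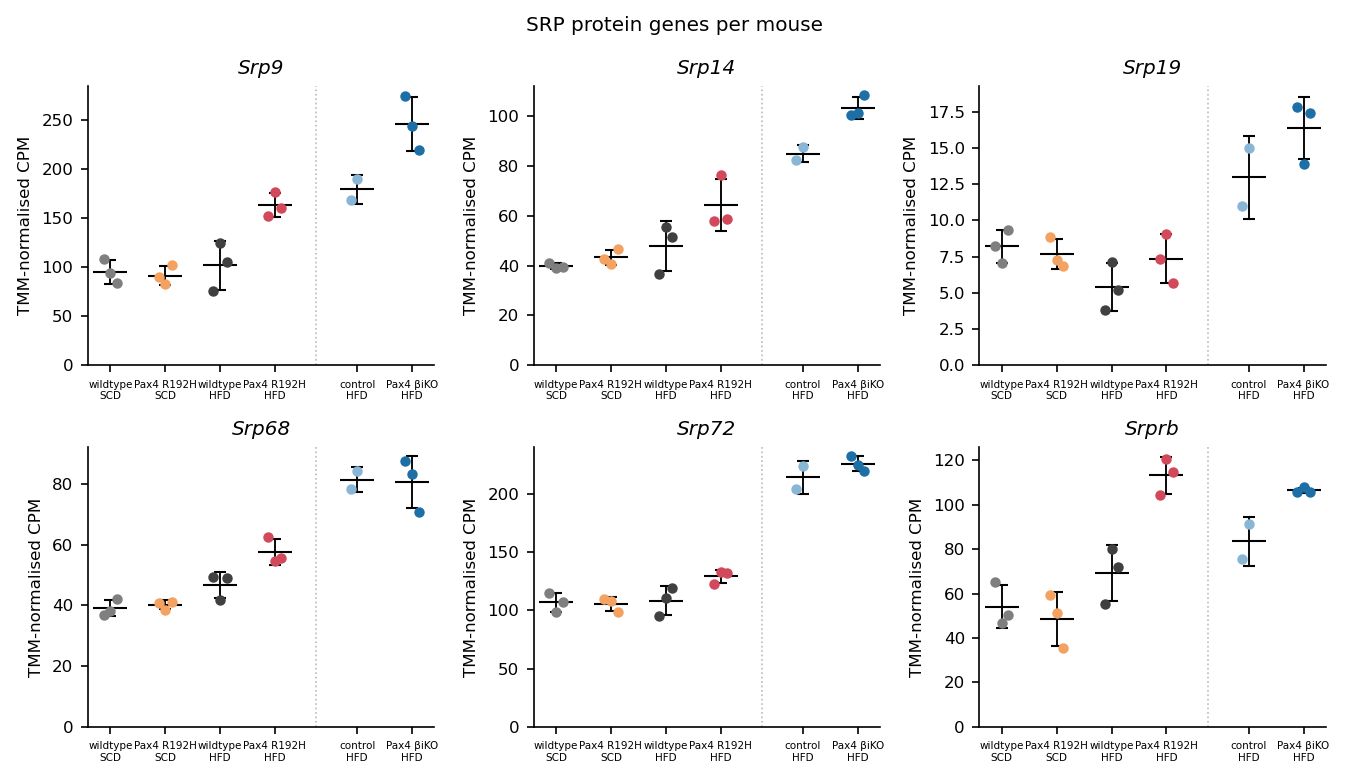
TMM-normalised CPM of the 6 SRP genes in each sample, each panel with its own axis from 0. Points are samples, horizontal lines are group means, error bars are SD, and the dotted line separates the 2 tables, whose levels were scaled apart. HFD-fed *Pax4* R192H samples lie above SCD-fed ones for all genes but *Srp19*, for *Srprb* at 104 to 121 against 35.5 to 59.2.

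In *Pax4* R192H islets, 6 of the 8 rows were called higher on HFD than on SCD, *Srprb*, *Srp9*, *Srp14*, *Srp68* and both abundant RNAs, where 15.7% of all rows were called and 9.75% were called higher. In TMM-normalised CPM, all rows but *Srp19* were higher on HFD without overlap, 7 of 8, against 21.3% of all rows. In CPM of all counts, 2 of 8 were, both abundant RNAs, against 3.16% of all rows. *Srp19* was lower without overlap on that scale, at 7.42 to 11.4 on SCD and 4.67 to 6.30 on HFD. The share of all rows lower in this way was not counted, and with plain library totals the median log2 fold change of all tested rows was -0.79. *Srprb* rose from 59.2, 51.1 and 35.5 TMM-normalised CPM on SCD to 104, 121 and 115 on HFD, a log2 fold change of 1.22 ± 0.19 (SE, edgeR adjusted p = 0.0014). *Srp9* rose from 89.8, 82.2 and 102 to 152, 176 and 160.2, a log2 fold change of 0.83 ± 0.17 (SE, edgeR adjusted p = 0.00557). Among the called SRP genes these had the largest changes. *Srp14* rose from 42.6, 40.8 and 46.6 to 57.8, 76.5 and 58.7, a log2 fold change of 0.57 ± 0.16 (SE, edgeR adjusted p = 0.0248). *Srp68* rose from 40.9, 38.5 and 41.1 to 62.6, 54.5 and 55.6, a log2 fold change of 0.52 ± 0.11 (SE, edgeR adjusted p = 0.00731). ENSMUSG00000118841 and ENSMUSG00000118866 rose by 1.06 ± 0.27 and 1.05 ± 0.27 (SE) on the log2 scale, with edgeR adjusted p-values of 0.0175 and 0.0178. With plain library totals these were 0.34 and 0.33 and were not called, with edgeR adjusted p-values of 0.0709 and 0.0764. *Srp72*, the partner of *Srp68*, had 109.7, 108 and 98.7 on SCD and 122, 133 and 132 on HFD without overlap, and was not called (log2 fold change 0.29, edgeR adjusted p = 0.105). *Srp19* had 8.82, 7.27 and 6.87 on SCD and 7.30, 9.06 and 5.68 on HFD, with overlap, and its log2 fold change was -0.06 with an edgeR adjusted p of 0.875.

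Acinar markers moved with these rows. The 25 markers summed to 64422 to 161042 CPM of all other counts in HFD-fed *Pax4* R192H samples, against 31962 to 43927 in SCD-fed *Pax4* R192H and 33588 to 50967 in HFD-fed wildtype samples, and none of the markers was at 0. In the diet comparison 24 of 25 were called higher, with a median log2 fold change of 1.84. In CPM of all other counts, the mean log2 level of these markers in *Pax4* R192H samples was 9.64 to 10.9 on HFD and 8.72 to 9.17 on SCD. As this level separates the 2 groups, calls lost with it as a covariate cannot tell diet from acinar level. With the mean level of the acinar markers as a covariate, edgeR called 0 of the 8 rows and 72 of all rows tested. The median log2 fold change of the 6 SRP genes was 0.53 against 0.54 without the covariate. The *Srprb* fold change was then 1.49 (adjusted p = 0.0922), and 1 of the 8 rows, *Srp19*, had a negative fold change, as without the covariate. Markers of islet endocrine cells moved as well: *Ins1*, *Ins2*, *Iapp* and *Pcsk2* were called higher and *Slc2a2* lower among 13 markers, and with plain library totals 0 of them were called higher and 6 lower. Other signs moved in the same comparison without overlap. Mitochondrially encoded genes took 1.46% to 1.59% of all other counts on SCD and 0.688% to 0.913% on HFD. The 5 endothelial and stromal markers summed to 220 to 251 CPM of all other counts on SCD and 149 to 169 on HFD. The 6 immune markers summed to 42.8 to 50.5 and 24.6 to 38.4, and the 5 duct markers to 117 to 128 and 137 to 144. With library totals that leave out the 2 abundant RNAs, the median log2 fold change of all tested rows was -0.50. A typical row thus fell on this scale as well. In wildtype islets the immune markers summed to 94.9 to 179 on SCD and 32.2 to 36.1 on HFD, and the endothelial and stromal markers overlapped. The part of these signs in the result was not tested. The part of cell composition in the changes of the SRP genes was not tested.

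**Figure D3:**
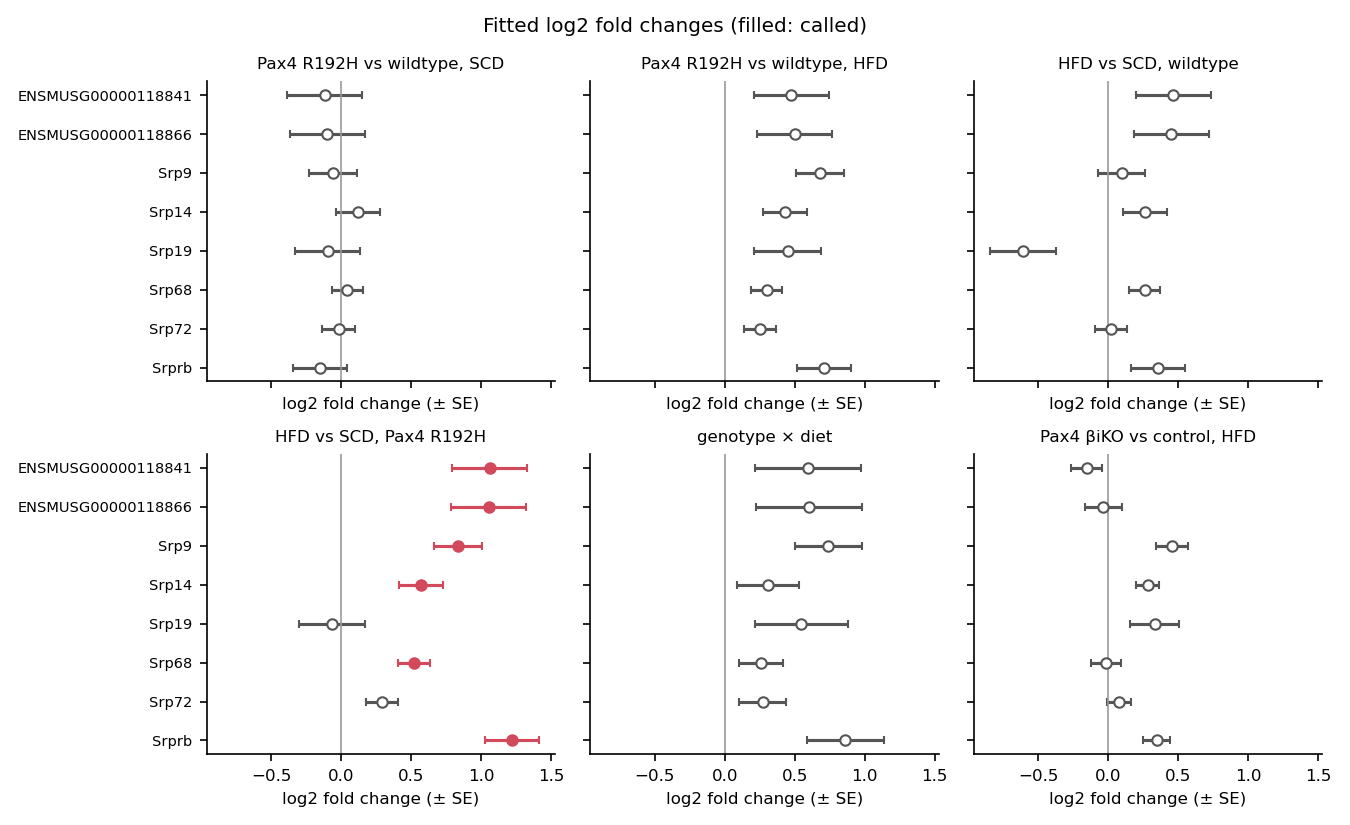
Log2 fold changes with SE of the 8 rows in the 6 comparisons, from edgeR with TMM normalization. Filled red points passed the test. All 6 filled points stand in the comparison of HFD with SCD in *Pax4* R192H islets, where *Srprb* reached 1.22.

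The interaction, the diet effect in *Pax4* R192H islets minus that in wildtype islets, was positive for 8 of 8 rows with TMM and for 5 with plain library totals, where *Srp14*, *Srp68* and *Srp72* turned negative, and this difference passed the test for none of them, against 0.131% of all rows. The interaction had a log2 size of 0.86 ± 0.27 for *Srprb* (SE, edgeR adjusted p = 0.234) and of 0.74 ± 0.24 for *Srp9* (SE, edgeR adjusted p = 0.252), and these were the 2 rows with an unadjusted p-value under 0.05, against 11.2% of all rows. DESeq2 called 0 of the 8 rows, where it called 1.79% of all rows. Thus the calls in *Pax4* R192H islets and their absence in wildtype islets do not show that the genotypes differed.

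The direction of the SRP genes depended on how the libraries were scaled. In HFD-fed against SCD-fed *Pax4* R192H islets, the median log2 fold change of the 6 SRP genes was 0.54 with TMM, -0.19 with plain library totals and 0.09 with library totals that leave out the 2 abundant RNAs. The median over all tested rows was -0.06, -0.79 and -0.50 under the same scalings. Relative to that median, the SRP genes stood 0.60, 0.60 and 0.59 higher. *Srp14* had 52.7 CPM of all counts on SCD and 47.1 on HFD, 88.9 and 96.8 CPM without the 2 abundant RNAs, and 43.3 and 64.3 CPM with TMM. *Srprb*, by contrast, was higher on HFD under each scaling, at 1.38, 1.71 and 2.33 times its SCD level. *Srp72* was higher only with TMM, and stood at 0.735 and 0.898 times its SCD level with the other library sizes. The number of rows called higher and lower over the whole table was 1865 and 1131 with TMM, 339 and 8600 with plain totals, and 615 and 5009 without the 2 abundant RNAs. TMM factors were between 0.692 and 0.823 in HFD-fed *Pax4* R192H samples and were 1.08 or more in SCD-fed ones. When the 2 abundant RNAs were left out and TMM was computed again, the 4 called SRP genes kept their calls, with log2 fold changes of 1.21 for *Srprb*, 0.83 for *Srp9*, 0.56 for *Srp14* and 0.51 for *Srp68*.

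**Figure D4:**
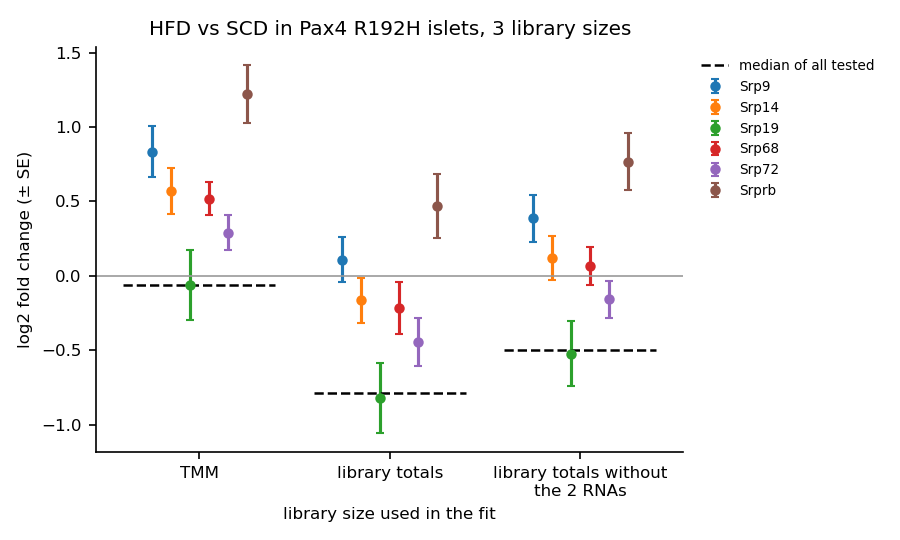
Log2 fold changes with SE of the 6 SRP genes for HFD against SCD in *Pax4* R192H islets, fitted with 3 kinds of library size. Dashed lines mark the median of all rows tested. The genes and the median shift down together, from a median of -0.06 with TMM to -0.79 with plain totals, and *Srp19* stays close to the median throughout.

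Other genes of the targeting pathway, from lists written for this work, were read in the same comparison, against the 15.7% of all rows called and the 9.75% called higher. Among 4 further SRP and receptor subunits, *Srp54b* (log2 fold change 1.09, edgeR adjusted p = 0.0098) and *Srpr*, the receptor's other subunit (0.59, edgeR adjusted p = 0.0039), were called higher on HFD in *Pax4* R192H islets, and *Srp54a* and *Srp54c* were not. The 3 *Srp54* genes are near-identical copies on chromosome 12, among which reads can be divided wrongly. Of 12 genes of the Sec61 channel and its partners, 6 were called higher and none lower. *Ssr4* (1.70), *Ssr2* (1.02) and *Ssr3* (0.62) encode subunits of the TRAP complex beside the channel, and *Sec61b* (0.90), *Sec61g* (0.89) and *Sec61a1* (0.79) encode the channel itself. Of 5 signal peptidase genes, 3 were called higher, *Sec11c* (1.42), *Spcs1* (0.79) and *Sec11a* (0.76). The medians of these 3 lists were 0.40, 0.48 and 0.76, beside -0.06 over all rows. With plain library totals they were -0.33, -0.26 and 0.031, beside -0.79, and the calls were then 0 higher and 2 lower of 4 (*Srp54a* and *Srp54c*), 1 higher (*Ssr4*) and 4 lower of 12, and 1 higher (*Sec11c*) and 1 lower of 5, where 46.7% of all rows were called. With the acinar covariate, *Ssr4* alone of these 3 lists was called (1.54, edgeR adjusted p = 0.0471), while the list medians were 0.51, 0.62 and 0.87, and the fold change was 1.10 for *Srp54b*, 0.63 for *Srpr* and 1.32 for *Sec11c*. Of 3 genes of the nascent chain complex, *Naca* (0.53) was called higher. Of 7 genes of SRP-independent insertion, 3 were, *Get4* (0.70), *Ubl4a* (0.57) and *Snd1* (0.56). Of 30 subunits and factors of RNA polymerase III, *Polr1d* and *Gtf3a* were called higher and *Snapc1* lower, against the same 15.7% of all rows, and the list median was 0.00. With plain library totals none of the genes of these last 3 lists was called higher.

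Between genotypes on HFD, the channel and signal peptidase lists held the pathway's calls. *Ssr4* (log2 fold change 1.22, edgeR adjusted p = 0.0043), *Ssr3* (0.62, edgeR adjusted p = 0.0474), *Sec11c* (1.17, edgeR adjusted p = 0.0062) and *Spcs1* (0.70, edgeR adjusted p = 0.0474) were higher in *Pax4* R192H islets. That is 2 of 12 and 2 of 5 genes, and 0 of 4 further SRP subunits were called, against 2.28% of all rows. *Ssr3* was not called with RLE size factors (edgeR adjusted p = 0.0505), and *Ssr3* and *Spcs1* were not with plain library totals (edgeR adjusted p = 0.348 and 0.198). In the same comparison 9 of 25 acinar markers were called higher, with a median log2 fold change of 1.51, and of the endocrine markers *Slc2a2*, the glucose transporter of β cells, was called lower (-1.28, edgeR adjusted p = 0.0059). With the mean level of the acinar markers as a covariate, edgeR called 0 of all rows tested and 1387 had an unadjusted p-value under 0.05, so none of these 4 calls was kept. The log2 fold changes were then 1.09 for *Ssr4*, 0.67 for *Ssr3*, 1.10 for *Sec11c* and 0.77 for *Spcs1*. The mean log2 level of the acinar markers was 9.64 to 10.9 in HFD-fed *Pax4* R192H and 8.70 to 9.31 in HFD-fed wildtype samples, without overlap. Calls lost with this covariate therefore cannot tell genotype from acinar level. The comparisons of HFD with SCD in *Pax4* R192H islets and of the genotypes on HFD share the HFD-fed *Pax4* R192H samples.

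**Figure D5:**
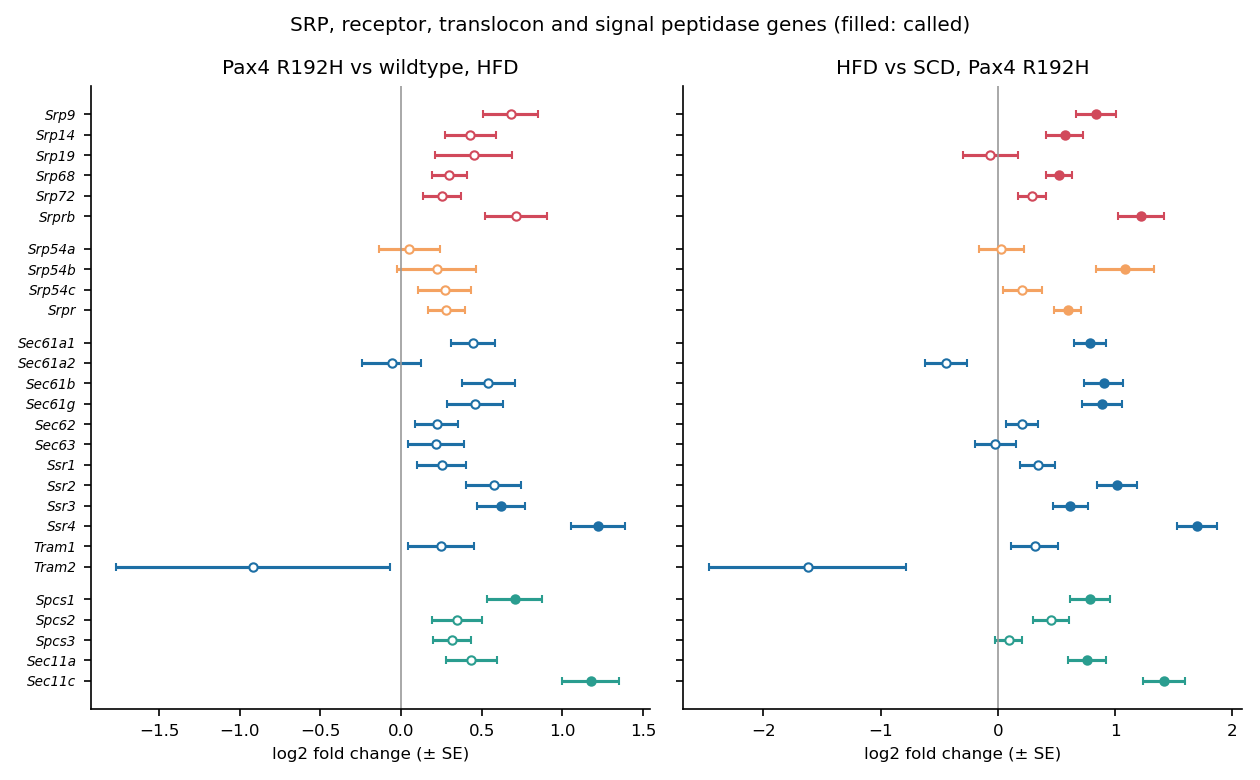
Log2 fold changes with SE of SRP genes (red), further SRP and receptor subunits (orange), Sec61 channel and partner genes (blue) and signal peptidase genes (green), for both genotypes on HFD and for both diets in *Pax4* R192H islets. Filled points passed the test. *Ssr4* lies farthest to the right in both panels, at 1.22 and 1.70, and *Tram2*, farthest to the left, has wide errors.

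In *Pax4* βiKO islets none of the 8 rows was called against control, where 0.0893% of all rows were. DESeq2 also called none of the 8, where it called 1.22% of all rows. An unadjusted p-value under 0.05 was reached by 3 rows, *Srp9*, *Srprb* and *Srp14*, against 12.8% of all rows. *Srp9* had 168 and 189.6 TMM-normalised CPM in control and 274, 244 and 219 in *Pax4* βiKO islets, a log2 fold change of 0.46 ± 0.11 (SE, edgeR adjusted p = 0.233). *Srprb* had 75.8 and 91.5 in control and 106, 108 and 106 in *Pax4* βiKO islets, a log2 fold change of 0.35 ± 0.10 (SE, edgeR adjusted p = 0.263). *Srp14* had 82.5 and 87.4 in control and 100.5, 101 and 109 in *Pax4* βiKO islets, a log2 fold change of 0.28 ± 0.08 (SE, edgeR adjusted p = 0.264). These 3 genes were higher without overlap, 3 of 8 rows, against 15.9% of all rows, and ENSMUSG00000118841 was lower without overlap in TMM-normalised CPM but not in CPM of all counts (log2 fold change -0.15, edgeR adjusted p = 0.608), against 16.7%. *Srp19* (0.33), *Srp72* (0.08), *Srp68* (-0.01) and ENSMUSG00000118866 (-0.03) overlapped between the groups. The acinar markers summed to 31150 and 121321 CPM of all other counts in control and to 21350 to 95511 in *Pax4* βiKO samples, and none of the 25 was called. With their mean level as a covariate, edgeR called 0 of the 8 rows and 13 of all rows tested, 3 of the 8 rows had an unadjusted p-value under 0.05, and the log2 fold changes were 0.47 for *Srp9*, 0.31 for *Srprb* and 0.26 for *Srp14*. No gene of the pathway lists was called in this comparison.

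The level of the 2 abundant RNAs relative to all other counts was also set against each of 9100 genes over the 12 samples of the *Pax4* R192H table, as a description, since these points share libraries and groups. The most alike row was *Gm20390*, with a Pearson correlation of 0.945. It was followed by 4 rows that no table here names and whose counts were identical, at 0.941. *Rpph1* ranked 49th at 0.848. Of the SRP genes, *Srp9* stood at 0.724, *Srprb* at 0.570 and *Srp14* at 0.560. *Srp68* was at 0.009, *Srp72* at -0.528 and *Srp19* at -0.563, so the protein genes did not follow the 2 abundant RNAs as a group. These values carry the differences between groups. With each group centred on its own mean, the correlation was 0.732 for *Srp9*, 0.525 for *Srp14*, -0.146 for *Srprb*, -0.554 for *Srp68*, -0.136 for *Srp72* and 0.009 for *Srp19*. *Rpph1* itself was called higher on HFD in *Pax4* R192H islets (log2 fold change 0.68, edgeR adjusted p = 0.0452), but in CPM of all counts it had 11270 to 13947 on SCD and 11068 to 13432 on HFD, with overlap, while *Malat1*, a nuclear RNA made by RNA polymerase II, was called lower (-1.08, edgeR adjusted p = 0.0055).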

How the data were processed

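Total RNA from islets was made into stranded libraries. STAR v2.7.1 (genome mm10), RSEM v1.3.3 and tximport v1.36.0 were run by the authors, in this order, to align reads, estimate transcript levels and sum them to genes. The annotation release is not given in the sources used here. The authors deposited expected counts, 1 row per gene and not scaled for depth, and RSEM splits reads among near-identical copies. They were rounded and tested with edgeR v4.0.16 in R v4.3.3: filterByExpr with a minimum count of 10, TMM, 1 coefficient per group and table, quasi-likelihood F-test, Benjamini-Hochberg adjustment over all rows, calls at an adjusted p-value below 0.05 and a log2 fold change beyond 0.5. The prior count for log2 CPM was 2. The share of the 2 abundant RNAs was tested by two-sided exact permutation (scipy v1.17.1). CPM per kilobase used merged exons of GENCODE M21 on GRCm38, which also gave symbols for 65.8% and 66.7% of the identifiers of the 2 tables.

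All 8 members were named, with pathway genes where called. The members and lists were chosen with earlier results of these data known. *Srpra*, *Get1*, *Get3*, *Camlg* and *Rn18s-rs5* matched no symbol, and *Rn7sk*, *Vaultrc5*, *Terc* and *Gm26917* are no rows of the tables used here. Other lists had no further calls than those named. Reference sequences are not reported here. Replicates of a group were no duplicates, since their counts differed by more than sampling noise. Alternatives were RLE size factors, plain library totals, leaving out the 2 abundant RNAs, no filter, 10 counts in every sample, a replicate block, DESeq2 (v1.42.0), only the 2 groups compared, an acinar marker covariate and leaving out each sample. Plain totals together with leaving out the 2 abundant RNAs were added after seeing the data. On simulated data with 200 genes changed 4-fold, edgeR recovered 65.8% of the changed genes tested among 18546 for HFD against SCD in *Pax4* R192H islets, with 9 of 138 calls unchanged, and 78.9% among 19601 for *Pax4* βiKO against control, with 11 of 161 calls unchanged.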

Additional observations from a re-analysis of the deposited data

How the results depend on the processing

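The call of 6 rows for HFD against SCD in *Pax4* R192H islets moved most. It became 1 with plain library totals, *Srp19* called lower (46.7% of all rows called). When the 2 abundant RNAs were also left out it became 1 of 6, *Srprb* (29.4%). With the acinar covariate it became 0 (0.376%). It became 4 with no filter (9.58%) or with only the 2 groups compared (21%). In these 2 settings both abundant RNAs lost their calls (edgeR adjusted p between 0.0605 and 0.108). It became 5 with 10 counts in every sample (21.2%), where *Srp68* fell to 0.48. With 1 sample left out it was 3 to 6 (8.38% to 11.2%), with 3 without the first or second SCD-fed or the second HFD-fed *Pax4* R192H sample. For *Pax4* R192H against wildtype on HFD, edgeR called 2 rows, *Srp9* and *Srprb*, with no filter (3.21% of all rows) and with 10 counts in every sample (4.61%). DESeq2 called the same 2 rows (5.19%). With 1 sample left out, edgeR called 0 to 1 (0.458% to 2.45%). For the interaction, 1 row, *Srprb*, was called with no filter, where 1.78% of all rows were called. The cause of these moves was not tested. Replicate numbers did not pair the samples: the correlation of deviations lay between -0.30 and 0.19 in the first table and was 0.07 and 0.04 in the second. With the numbers as a replicate block, 6 rows were called again for HFD against SCD in *Pax4* R192H islets, and the block changed no other count of called members. Over all rows it called 2347 rather than 2996 there, and 147 rather than 437 for the genotypes on HFD.

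The share difference between HFD and SCD stayed between 6.72 and 9.55 percentage points with 1 sample left out (exact permutation p between 0.01 and 0.03), and was 8.13 with the replicate block (p = 0.0625). The other share differences changed sign with 1 sample left out, between -4.09 and 1.03 points for the genotypes on SCD, between -0.20 and 2.36 over both diets, and between -0.89 and 0.11 for *Pax4* βiKO against control. The genotype difference on HFD stayed between 1.78 and 4.82.

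In CPM of all counts, the median log2 ratio of the 6 SRP genes was -0.19 for HFD against SCD in *Pax4* R192H islets, 0.10 without the 2 abundant RNAs and 0.54 with TMM. In wildtype islets it was -0.11, 0.038 and 0.18, and for the genotypes on HFD it was 0.06 with all counts and 0.44 with TMM.

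Single fold changes also changed sign. With plain library totals, *Srp9* stood at -0.19, *Srp14* at -0.035, *Srp68* at -0.012 and *Srp72* at -0.26 for HFD against SCD in wildtype islets, *Srp9* at 0.012 and *Srp72* at 0.060 for the genotypes on SCD, *Srp68* stood at -0.10 and *Srp72* at -0.12 for the genotypes on HFD, and *Srp14* at -0.16, *Srp68* at -0.21 and *Srp72* at -0.44 for HFD against SCD in *Pax4* R192H islets. When the 2 abundant RNAs were left out too, *Srp72* stood at -0.023 and -0.16, and in wildtype islets *Srp9* stood at -0.047 and *Srp72* at -0.11. *Srp72* for the genotypes on SCD then stood at 0.022. *Srp19* for HFD against SCD in *Pax4* R192H islets lay between -0.24 and 0.097 with 1 sample left out, above 0 without the first SCD-fed or the third HFD-fed sample. For *Pax4* βiKO against control, ENSMUSG00000118866 stood at 0.016 and *Srp68* at 0.071 with the replicate block. With 1 sample left out they lay between -0.17 and 0.11 and between -0.078 and 0.072, both above 0 without the second control or the third *Pax4* βiKO sample.

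Depth limits *Srp19* most, at 3.81 to 9.34 TMM-normalised CPM in the first table. With 2 control samples, the *Pax4* βiKO comparison rests on few values.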
